A study of Mus musculus with 12 samples.

Results

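The ID factors Id1, Id2 and Id3, the pseudoreceptor gene Bambi, and the Notch pathway genes Hes1, Notch1, Notch2 and Rbpj were followed in mouse alveolar-like macrophages. These 8 genes were picked by symbol from the 40847 rows of a table of read counts per gene, and all 8 were present in it. The cells were fetal liver alveolar-like macrophages (FLAMs), a macrophage culture grown from fetal liver in recombinant mouse GM-CSF at 30 ng/ml, which every group received. Untreated cells had GM-CSF alone, the TGFβ group also had recombinant human TGFβ1 at 20 ng/ml, the Pam3 group had the TLR2 ligand Pam3CSK4 at 25 ng/ml for 18 h without TGFβ, and the Pam3+TGFβ group had both agents. Each of the 4 groups had 3 libraries of polyadenylated RNA, and the title of the series names priming by TGFβ before TLR2 activation as its subject. The labels do not say whether the 3 libraries of a group came from separate cultures, so p-values measure the spread between these libraries, which may be technical.

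ID proteins are helix-loop-helix proteins without a DNA-binding part. They pair with E proteins such as those encoded by Tcf3, Tcf4 and Tcf12 and keep them off DNA, and their genes are well-known targets of BMP receptors acting through SMAD1 and SMAD5. Bambi encodes a membrane protein that resembles a TGFβ family receptor but lacks the kinase, and it dampens signalling by that family. Notch receptors are cut by ADAM proteases and γ-secretase after they bind a ligand on a neighbouring cell, and the freed intracellular part enters the nucleus, binds RBPJ and turns on genes such as Hes1, which encodes a repressor. Without Notch, RBPJ holds its targets down together with co-repressors.

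Upstream sequences are shown for the 3 genes whose changes with TGFβ were clearest among the 5 of 8 members that have an entry in the RefSeq promoter table of build GRCm38.p6. The Id2 and Id3 sequences are shown together because TGFβ moved these paralogs in opposite directions, and Rbpj is shown because it holds the core motif of its own product. Each line gives the 250 bases before the annotated start, 5′ to 3′ on the gene's strand, from chr12:25096093-25096342 (minus strand) for Id2, chr4:136143572-136143821 (plus strand) for Id3 and chr5:53590096-53590345 (plus strand) for the first of 2 Rbpj starts. Capitals mark the SMAD box GTCT and, as known from BMP-responsive genes, the GC element GGCGCC in Id2 and Id3. In Rbpj they mark only the RBPJ core TGGGAA, and the SMAD boxes there are left unmarked. A motif on the opposite strand is shown by its reverse complement.
Id2: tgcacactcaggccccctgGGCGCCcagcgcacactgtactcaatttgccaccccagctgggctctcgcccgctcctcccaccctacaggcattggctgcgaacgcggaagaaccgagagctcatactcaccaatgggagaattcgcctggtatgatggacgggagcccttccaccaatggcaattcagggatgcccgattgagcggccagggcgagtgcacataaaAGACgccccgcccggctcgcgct
Id3: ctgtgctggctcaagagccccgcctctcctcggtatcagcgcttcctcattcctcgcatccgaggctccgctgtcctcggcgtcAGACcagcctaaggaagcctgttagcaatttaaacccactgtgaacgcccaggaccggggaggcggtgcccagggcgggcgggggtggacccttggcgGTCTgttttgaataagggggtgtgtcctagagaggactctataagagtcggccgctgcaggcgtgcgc
Rbpj: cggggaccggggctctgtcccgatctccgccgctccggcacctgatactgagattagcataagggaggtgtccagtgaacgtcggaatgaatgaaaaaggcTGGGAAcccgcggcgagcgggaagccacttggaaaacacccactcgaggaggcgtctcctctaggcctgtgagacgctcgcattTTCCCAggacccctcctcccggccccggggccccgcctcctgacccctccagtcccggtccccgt

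Motifs were counted on both strands over the 300 bases from 250 before to 50 after each start, for all 32851 entries of that table. The RBPJ core was found 2 times at the first Rbpj start, and 25.6% of all entries hold at least 1. The Id2 window held 1 GC element, which 11.9% of entries hold, and 1 SMAD box, while the Id3 window held 3 SMAD boxes (1 of them after the start) and no GC element. SMAD boxes were also found 3 times at each Rbpj start and 1 time at Notch1. A SMAD box is short and was found in 88% of entries. The N-box CACNAG, a motif bound by HES proteins, was found 3 times at Notch1 and 1 time each at Notch2 and Id2 against 42.5% of entries, and the E-box CANNTG, bound by E proteins, 2 times at the first Rbpj start and 1 time at Id2 against 72.3%. The RBPJ core was not among the letters of the Id2, Id3, Notch1 and Notch2 windows. These matches describe the letters and do not show binding.

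Library totals ran from 34036650 to 44374115 counts. Levels are given as CPM, the usual count scaled to library size, after TMM, which corrects library sizes for a few dominating genes. Of the 10 macrophage markers, 10 were above 1 CPM in at least 1 group, and so were 10 of 10 alveolar macrophage markers, although Krt79 was near 0 without TGFβ and Fabp4 near 0 with it. The summed macrophage markers ran from 44756 to 50554 CPM untreated, 24911 to 25987 in TGFβ, 47033 to 48380 after Pam3 and 34503 to 35270 under both agents, so their sum was lower with TGFβ, as Rbpj and Id2 were below, and within the range of untreated cells with Pam3 alone. Lyz2 (29814 CPM untreated, 15243 in TGFβ) and Ctsd (13180 and 8305) made up most of it. Of the other 8 means, Itgam (1088 and 38.7), Adgre1 (303 and 145), Itgax (335 and 168), Cd68 (858 and 549), Csf1r (983 and 820) and Cd14 (42.9 and 33.4) were also lower in TGFβ, Mertk was level (223 and 222) and Fcgr1 was higher (81.1 and 91.3). From Pam3 alone to both agents, Fcgr1 (88.0 and 171 CPM), Cd14 (73.5 and 109) and Mertk (193 and 228) were higher. Csf1r was level there (1234 and 1241), and the remaining macrophage markers were lower. The summed alveolar macrophage markers ran from 6568 to 7406 CPM untreated, 8316 to 8916 in TGFβ, 7872 to 8356 after Pam3 and 8235 to 8622 under both agents. Within them Chil3 (2953 CPM untreated and 5036), Ear2 (654 and 1493), Car4 (448 and 774) and Cd9 (511 and 672) were higher in TGFβ. So were Siglecf (32.1 and 300), Pparg (117 and 225), Cidec (1.40 and 2.52) and Krt79 (0.147 and 52.5). Marco (2146 and 123) and Fabp4 (31.1 and 0.132) were lower. The part of these shifts in the results was not tested. Markers of lymphocytes, mast cells, fibroblasts and erythroid cells summed to at most 4.29 CPM in any library, hepatocyte markers to 5.80 to 10.2 CPM, nearly all Afp, and dendritic cell markers to 16.8 to 25.0 CPM, mostly Clec9a. Neutrophil markers, mostly S100a8, summed to 13.5 to 15.8 CPM untreated, 3.74 to 5.50 in TGFβ, 16.3 to 17.1 after Pam3 and 5.33 to 7.17 under both agents, with Mpo at 0. The lower sum with TGFβ came from S100a8 (13.8 CPM untreated and 3.06 in TGFβ). S100a9 (0.253 and 0.993), Ngp (0.346 and 0.623) and Camp (0.008 and 0.174) were higher in TGFβ, and Ly6g, Elane and Prtn3 were near 0. The part of the neutrophil markers in the results was not tested. Of 7 endothelial markers, Vwf alone was high (292 CPM untreated, 183 in TGFβ, 218 after Pam3 and 126 under both agents), while Emcn had no count and Tek and Tie1 were near 0. Cdh5 (0.888 CPM untreated and 0.0514 in TGFβ) and Kdr (0.865 and 0.082) were also lower in TGFβ, while Pecam1 was higher (0.895 and 2.46). In these bulk samples, fewer cells of a type and less RNA per cell cannot be told apart.

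All 8 members passed the filter on low counts. Hes1 passed it only through the TGFβ group, where it was high, so its difference from the other groups is partly built in. Of the 14749 genes tested, edgeR called 51% between TGFβ and untreated cells, 45.3% between Pam3+TGFβ and Pam3, 18.3% between Pam3 and untreated cells and 38.5% between Pam3+TGFβ and TGFβ, at an adjusted p under 0.05 over all genes. The interaction, in which the response to Pam3 of cells lacking TGFβ is subtracted from that of TGFβ cells, was called for 15.9%. Because of that filter, members are counted here without Hes1. Of the 7 others, 5 were called for TGFβ without Pam3, 3 higher and 2 lower, where 22.9% of all genes were higher and 28.1% lower. For TGFβ with Pam3, 7 were called, 4 higher and 3 lower, against 21.5% and 23.8%. For Pam3 without TGFβ, 4 were called, 2 higher and 2 lower, against 9.62% and 8.66%. For Pam3 with TGFβ, all 7 were called, 4 higher and 3 lower, against 20.4% and 18.1%. For the interaction, 4 were called, 2 higher and 2 lower, against 10.3% and 5.67%. Over these 7 members, the median log2 fold changes were 0.22, 0.23, 0.10, 0.13 and -0.11 in that order, against medians of all genes between -0.02 and 0.00. The members thus moved both ways in each comparison.

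**Figure D1:**
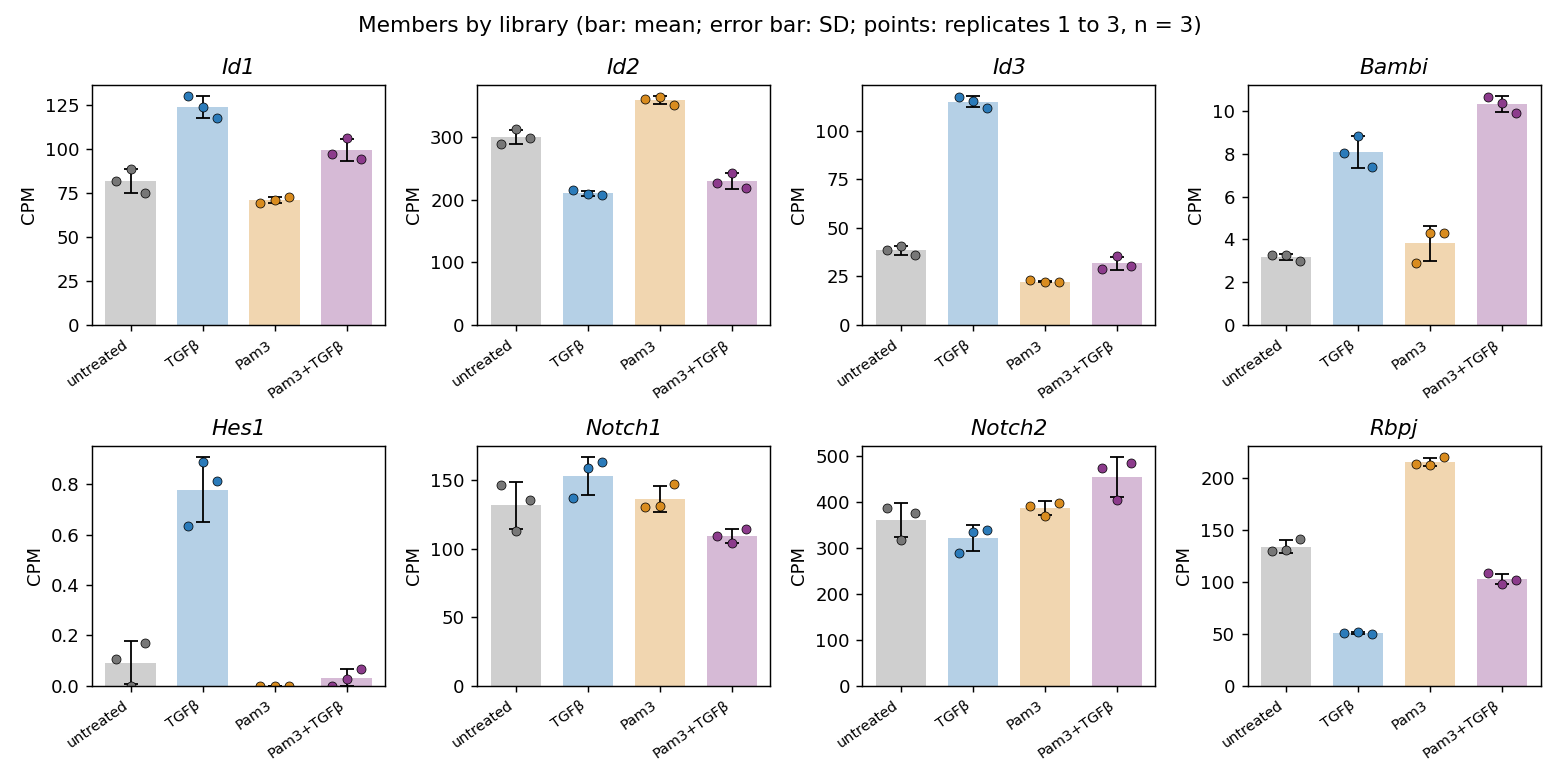
Level of each member in CPM (linear axis from 0) in the 12 libraries, grouped by treatment; bars are means, error bars SD and points the 3 libraries of a group. Id3 stood at 111.9 to 117 CPM with TGFβ alone and at or below 40.8 CPM in every library of the other groups, and Hes1 was at or near 0 outside the TGFβ group.

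Id3 (chromosome 4, 135870808 to 135873066, plus strand of GRCm39, 3 exons) encodes an ID factor known from lymphocytes and as a BMP and TGFβ target. It stood at 38.6, 40.8 and 36.2 CPM in the untreated libraries, 117, 116 and 111.9 with TGFβ, 22.9, 22.0 and 22.3 with Pam3, and 29.0, 35.6 and 30.4 with both. The TGFβ libraries were all above every other library, and the lowest group, Pam3, did not overlap any other. TGFβ raised Id3 2.98-fold without Pam3 (log2 fold change 1.58, SE 0.07, adjusted p 4.47e-16) and 1.41-fold with Pam3 (0.50, SE 0.07, adjusted p 1.94e-06). Pam3 lowered it 1.72-fold without TGFβ (log2 fold change -0.78, SE 0.07, adjusted p 6.89e-09) and 3.63-fold with TGFβ (-1.86, SE 0.07, adjusted p 4.23e-17). The difference between these responses was tested as the interaction, which was -1.08 (95% interval -1.27 to -0.88, adjusted p 7.48e-09). With both agents the group mean was 31.7 ± 3.48 CPM (SD, n = 3), and its highest library was below the lowest untreated library (36.2).

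Id1 (chromosome 2, 152566218 to 152579544, plus strand of GRCm39, canonical transcript of 2 exons), the ID factor most often used as a readout of BMP signalling, moved in the same directions as Id3. Its levels were 82.1, 88.8 and 75.0 CPM untreated, 130.2, 124 and 118 with TGFβ, 69.4, 71.0 and 72.8 with Pam3, and 97.5, 106.6 and 94.4 with both. The order was TGFβ, both agents, untreated and Pam3, and no 2 neighbouring groups overlapped. TGFβ raised Id1 1.51-fold without Pam3 (log2 fold change 0.60, SE 0.06, adjusted p 8.3e-09) and 1.40-fold with it (0.49, SE 0.06, adjusted p 3.61e-07). Pam3 lowered Id1 1.25-fold with TGFβ (-0.32, SE 0.06, adjusted p 0.000147). Without TGFβ its change was -0.21 (SE 0.06, adjusted p 0.0197), and this call was lost without untreated replicate 1 (-0.20, adjusted p 0.0559), untreated replicate 2 (-0.14, adjusted p 0.102), Pam3 replicate 1 (-0.19, adjusted p 0.0939) or Pam3 replicate 2 (-0.21, adjusted p 0.0644). The interaction of Id1 was -0.11 and was not called (95% interval -0.28 to 0.06, adjusted p 0.467). It ranged from -0.18 to -0.04 when 1 library was left out.

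Id2 (chromosome 12, 25143798 to 25147282, minus strand of GRCm39, 3 exons), which is best known for its part in innate lymphoid and dendritic cell development, went the opposite way. It measured 289.7, 313 and 298 CPM in the untreated libraries, 215, 209.8 and 207 with TGFβ, 361, 364 and 352 with Pam3, and 227, 244 and 219 with both. Every library with TGFβ was below every library without it. TGFβ lowered Id2 1.43-fold without Pam3 (log2 fold change -0.51, SE 0.04, adjusted p 2.58e-10) and 1.56-fold with Pam3 (-0.64, SE 0.04, adjusted p 3.87e-12). Pam3 raised it 1.19-fold without TGFβ (0.26, SE 0.04, adjusted p 9.24e-05). With TGFβ the rise was 1.09-fold (0.13, SE 0.04, adjusted p 0.025), and it lost its call with upper-quartile scaling (0.06, adjusted p 0.273) and when any 1 of TGFβ replicates 1, 2 and 3 or Pam3+TGFβ replicates 1 and 2 was left out (adjusted p 0.069, 0.114, 0.161, 0.0887 and 0.283). The interaction of Id2 was -0.13 (95% interval -0.25 to -0.01, adjusted p 0.173), and it was called only without Pam3+TGFβ replicate 2 (-0.19, adjusted p 0.0364).

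To compare the paralogs with each other, CPM was divided by the length of the canonical transcript in kb. On this scale Id1, Id2 and Id3 summed to 223 ± 11.5 untreated, 225 ± 1.61 after Pam3, 283 ± 9.13 in TGFβ and 204 ± 13.1 under both agents (SD, n = 3). Id2 made up 54.7 ± 1.55% of this sum in untreated cells and 64.8 ± 0.751% with Pam3, but 30.2 ± 0.414% with TGFβ and 45.7 ± 0.541% with both. Id3 made up 13.5 ± 0.297%, 7.80 ± 0.197%, 31.8 ± 0.276% and 12.1 ± 0.671% in the same order of groups. Id1 made up 31.8 ± 1.28%, 27.4 ± 0.765%, 38.0 ± 0.651% and 42.2 ± 0.17%. Id1 thus had the highest share with TGFβ alone and Id2 in the other groups. Shares depend on 1 transcript length per gene and on the reads assigned to each paralog.

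**Figure D2:**
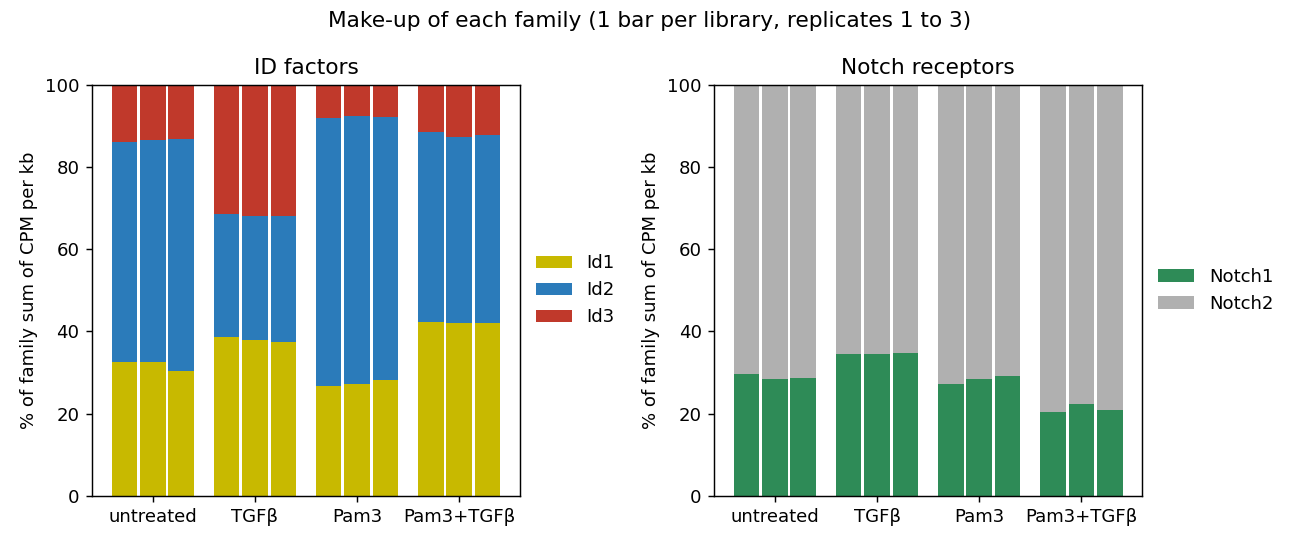
Make-up of the ID factors (left) and of Notch1 and Notch2 (right) as percent of the family's summed CPM per kb of canonical transcript, 1 bar per library. The Id3 share was 31.5 to 32.0% in the TGFβ libraries and 7.60 to 13.8% in the others, and the Notch1 share was highest with TGFβ (34.5 to 34.8%) and lowest with both agents (20.4 to 22.3%).

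Bambi was low, with 105 to 439 counts per library, and followed TGFβ. It read 3.26, 3.25 and 2.99 CPM untreated, 8.05, 8.81 and 7.36 with TGFβ, 2.89, 4.27 and 4.29 with Pam3, and 10.6, 10.4 and 9.92 with both. The 6 libraries with TGFβ were above the 6 without it. TGFβ raised Bambi 2.55-fold without Pam3 (log2 fold change 1.35, SE 0.14, adjusted p 1.6e-08) and 2.71-fold with Pam3 (1.44, SE 0.14, adjusted p 4.18e-09). The interaction was 0.09 and not called, with a 95% interval of -0.31 to 0.48 (adjusted p 0.84). Pam3 gave 0.26 without TGFβ (SE 0.15, adjusted p 0.272, and 0.17 to 0.43 when 1 library was left out), where the groups overlapped. With TGFβ it gave 0.35 (SE 0.13, adjusted p 0.0377), a call that was lost with upper-quartile scaling (0.29, adjusted p 0.0859) and after 6 of the 12 single-library omissions, namely untreated replicate 1, any of TGFβ replicates 1 and 3, and any of Pam3+TGFβ replicates 1, 2 and 3 (adjusted p 0.0536, 0.107, 0.186, 0.136, 0.0977 and 0.0747).

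Reads of Bambi can be shared with its intronless copy Bambi-ps1, which has a row of its own. That row held 333 counts in all, 11.5% of the Bambi total of 2892, and its sums were 56 in the untreated group, 79 in TGFβ, 55 after Pam3 and 143 under both agents. How reads that match both were counted is not given in the sources used here, so the level of Bambi is uncertain. The group sums of Bambi itself were 364, 929, 407 and 1192 in the same order.

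Hes1 (chromosome 16, 29882134 to 29886643, plus strand of GRCm39, 4 exons), the classic target of Notch and RBPJ, was close to the detection limit. It had 23, 36 and 31 counts in the TGFβ libraries, 4, 0 and 6 in untreated cells, 0, 1 and 3 with both agents, and 0 in each Pam3 library. The TGFβ group did not overlap any other. Summed over the group, these were 90 counts with TGFβ, 10 in untreated cells and 4 with both agents. These counts are a description, with no test of the TGFβ group against the others, since Hes1 was tested only because it was high there. Untreated cells had 10 counts in all against 0 with Pam3, and 1 untreated library was also at 0. No test of this difference is given, since Hes1 passed the filter only through the TGFβ group and the Pam3 group was at 0. TGFβ in the presence of Pam3 compared 4 counts with 0, which gives no usable fold, and no test of it is given either.

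Rbpj (chromosome 5, 53623494 to 53814704, plus strand of GRCm39, 11 exons), which encodes the DNA-binding partner of all Notch receptors, had clearly separated levels in the 4 groups. It measured 130.1, 130.3 and 141 CPM in the untreated libraries, 50.9, 51.3 and 49.5 with TGFβ, 213, 212 and 219.9 with Pam3, and 108, 98.1 and 101 with both. The order was Pam3, untreated, both agents and TGFβ, with no overlap between any 2 groups. TGFβ lowered Rbpj 2.65-fold without Pam3 (log2 fold change -1.41, SE 0.05, adjusted p 9.52e-18) and 2.10-fold with Pam3 (-1.07, SE 0.05, adjusted p 2.04e-15). Pam3 raised it 1.61-fold without TGFβ (0.68, SE 0.05, adjusted p 1.19e-10) and 2.03-fold with TGFβ (1.02, SE 0.05, adjusted p 1.05e-14). Its interaction was 0.34 (95% interval 0.20 to 0.47, adjusted p 0.00117), so the response was larger with TGFβ while the level reached stayed below that of untreated cells. The interaction and all 4 other calls of Rbpj and of Id3 were kept in each alternative fit and in each fit that left out a library.

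Notch1 (chromosome 2, 26347915 to 26406675, minus strand of GRCm39, 34 exons) and Notch2 (chromosome 3, 97920800 to 98057677, plus strand, 34 exons) encode receptors for the same ligands. Notch1 was at 146.6, 113 and 135 CPM in the untreated libraries, 137, 159 and 163 with TGFβ, 131, 131 and 148 with Pam3, and 109, 104 and 115 with both. Untreated cells overlapped all 3 other groups, and the libraries with both agents were below all TGFβ and Pam3 libraries. With TGFβ, Pam3 lowered Notch1 1.40-fold (log2 fold change -0.48, SE 0.09, adjusted p 0.000446), against 0.05 without TGFβ (SE 0.09, adjusted p 0.767). The interaction of Notch1 was -0.54 (95% interval -0.78 to -0.29, adjusted p 0.00798). TGFβ lowered Notch1 in the presence of Pam3 (-0.32, SE 0.09, adjusted p 0.00837), a call lost without Pam3+TGFβ replicate 2 (-0.28, adjusted p 0.0582). Without Pam3 the effect of TGFβ was 0.22 (SE 0.09, adjusted p 0.0529), just outside the threshold, and ranged from 0.12 to 0.32 when 1 library was left out. Of 20 other fits, 9 called it, including the fit with a replicate block (adjusted p 0.0254), DESeq2 (0.23, adjusted p 0.014) and the fits without untreated replicate 1 (0.32, adjusted p 0.00585), TGFβ replicate 1 (0.31, adjusted p 0.0078) or Pam3 replicate 3 (0.22, adjusted p 0.0429).

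Notch2 moved the other way. It was at 387, 318 and 376 CPM in the untreated libraries, 289.7, 336 and 339.8 with TGFβ, 391, 369 and 398 with Pam3, and 474, 403 and 484 with both. The libraries with both agents were above all others, while untreated and TGFβ libraries overlapped. With TGFβ, Pam3 raised Notch2 1.41-fold (log2 fold change 0.50, SE 0.08, adjusted p 0.00021), against 0.10 without TGFβ (SE 0.08, adjusted p 0.488). The interaction was 0.40 (95% interval 0.16 to 0.63, adjusted p 0.0338). This call was fragile: it was lost with median-of-ratios scaling (adjusted p 0.0523), with upper-quartile scaling (adjusted p 0.054) and without any 1 of untreated replicates 1 and 3, TGFβ replicates 1, 2 and 3, Pam3 replicates 1 and 2 or Pam3+TGFβ replicates 1 and 3 (0.30 to 0.42 on the log2 scale, with adjusted p of 0.126, 0.0602, 0.0957, 0.0786, 0.0645, 0.0605, 0.0694, 0.145 and 0.134). TGFβ with Pam3 gave Notch2 a rise of 0.23 (SE 0.08, adjusted p 0.0351), which was lost without TGFβ replicate 2 or 3, Pam3 replicate 1 or 2, or Pam3+TGFβ replicate 1 or 3 (adjusted p 0.0587, 0.0508, 0.0645, 0.0948, 0.147 and 0.158). Without Pam3 it gave -0.16 (SE 0.08, adjusted p 0.12), which was called without a filter (adjusted p 0.00808) and without untreated replicate 2 (-0.24, adjusted p 0.017). That value ranged from -0.24 to -0.07 when 1 library was left out.

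Notch1 and Notch2 varied together within groups. Replicate 2 was lowest for both in the untreated and Pam3+TGFβ groups, and replicate 1 in the TGFβ group. In the Pam3 group replicate 3 was highest for both, while their lowest libraries differed. Per kb of transcript, Notch2 made up 71.1 ± 0.684% of the pair untreated, 71.8 ± 1.05% after Pam3, 65.4 ± 0.171% in TGFβ and 78.8 ± 0.979% under both agents (SD, n = 3). The TGFβ libraries (65.2 to 65.5%) and the libraries with both agents (77.7 to 79.6%) lay on opposite sides of the untreated ones (70.4 to 71.6%), without overlap, while the Pam3 libraries (70.8 to 72.9%) overlapped the untreated ones.

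**Figure D3:**
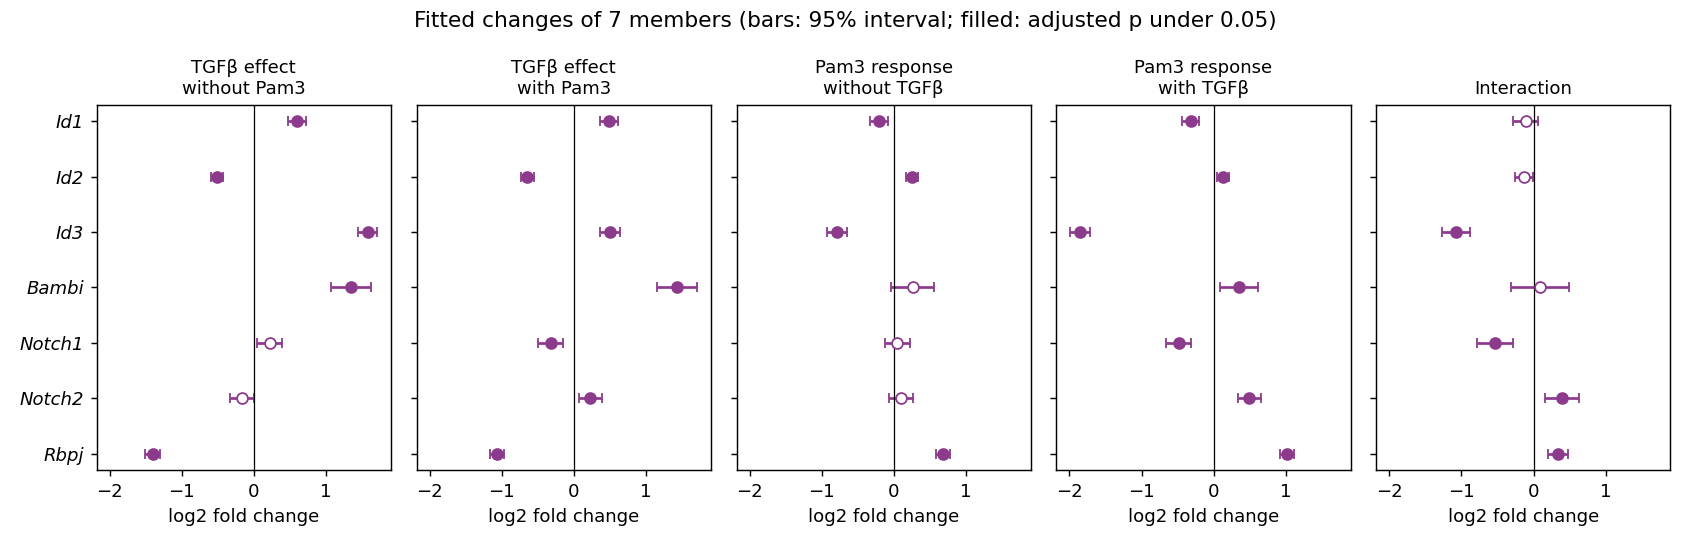
Log2 fold changes of 7 members in 5 comparisons, with 95% intervals; filled points passed an adjusted p under 0.05 in edgeR's quasi-likelihood test, and Hes1 is left out because its counts reach 0. Id1, Id3 and Bambi were above 0 and Id2 and Rbpj below 0 in both TGFβ comparisons, and Id3 had the lowest interaction of the 7 (-1.08).

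Other genes of the pathways were taken from 9 lists with 139 genes, of which 92 passed the filter. Among 8 Notch ligands, 3 were tested. Jag1, a ligand of Notch receptors, averaged 6.76 ± 0.578 CPM untreated, 8.37 ± 0.735 after Pam3, 13.1 ± 0.659 in TGFβ and 53.3 ± 4.0 under both agents (SD, n = 3). The interaction of Jag1 reached 1.72 (SE 0.13, adjusted p 3.15e-10), and TGFβ raised it without Pam3 (0.95, SE 0.10, adjusted p 5.44e-09) and with Pam3 (2.67, SE 0.09, adjusted p 4.7e-18). Dll1, another ligand, had 54, 56 and 93 counts with both agents, 0, 4 and 2 with TGFβ, 3, 6 and 0 with Pam3 and 0 in each untreated library. Dll1 passed the filter only through the group with both agents, so its counts are a description and no test of it is given. The third ligand gene, Dner, had at most 20 counts in a library.

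Among 21 genes of Notch receptors and their processing, 20 were tested, and TGFβ without Pam3 raised 3 and lowered 8 (median -0.10, against -0.01 for all genes, of which 22.9% rose and 28.1% fell). Aph1b and Aph1c, which encode alternative γ-secretase subunits, were both lower with TGFβ, Aph1b at a log2 fold change of -1.16 (adjusted p 2.25e-12, SE 0.08) and Aph1c at -1.73 (adjusted p 1.07e-13, SE 0.10). They are close paralogs, so the split of reads between them is uncertain. Adam17, which encodes a protease that can cut Notch as well as TNF, rose with Pam3 by 0.46 without TGFβ (SE 0.05, adjusted p 1.04e-07) and by 0.72 with it (SE 0.05, adjusted p 5.69e-12). Its interaction was 0.26 (SE 0.07, adjusted p 0.0097), while that of Adam10, the main Notch protease, was -0.29 (SE 0.08, adjusted p 0.0107).

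Of 19 genes for nuclear partners of RBPJ, 18 were tested. TGFβ raised 8 and lowered 1 of them without Pam3 (median 0.13, against -0.01 for all genes, of which 22.9% rose and 28.1% fell). With Pam3 it raised 9 (median 0.17, against 0.00 for all genes, of which 21.5% rose and 23.8% fell), and the other 9 were not called. Tle1, a co-repressor that works with HES proteins, rose with TGFβ from 15.2 ± 1.21 to 51.0 ± 2.04 CPM (SD, n = 3; log2 fold change 1.75, SE 0.08, adjusted p 2.04e-15). In the presence of Pam3 it rose from 15.0 ± 2.04 to 71.5 ± 2.93 CPM (log2 fold change 2.25, SE 0.08, adjusted p 1.83e-17). Maml3, which encodes a coactivator of the Notch and RBPJ complex, rose by 1.69 (SE 0.10, adjusted p 1.75e-13) and 1.33 (SE 0.10, adjusted p 2.19e-11). Rbpj itself fell in both of these comparisons.

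Of 15 other Notch targets, 7 were tested, and TGFβ without Pam3 raised 2 and lowered 2 (median -0.78, against -0.01 for all genes, of which 22.9% rose and 28.1% fell). That median is the value of Gata3 (SE 0.60, adjusted p 0.298), which was not called and had at most 22 counts in a library. Nrarp, a feedback inhibitor that Notch turns on, had 35, 30 and 22 counts with TGFβ and 8, 13 and 8 in untreated cells (log2 fold change 1.59, SE 0.57, adjusted p 0.0225), and with Pam3 the effect of TGFβ on it was 0.57 (adjusted p 0.467). Hey1 had 47, 47 and 53 counts with both agents and 19, 13 and 15 with Pam3 (1.53, SE 0.40, adjusted p 0.00287), while TGFβ without Pam3 gave 0.59 (adjusted p 0.206). The interactions of Nrarp (-1.02, SE 0.83, adjusted p 0.491) and Hey1 (0.94, adjusted p 0.303) were not called. Cdkn1a, the gene of the cell cycle inhibitor p21 and a target of many pathways, was lower with TGFβ (log2 fold change -1.91, SE 0.05, adjusted p 5.67e-20). Hes5, Heyl, Hey2 and Dtx1 had at most 3 counts in any library. Among 13 inhibitors and turnover genes of Notch, TGFβ without Pam3 raised 2 and lowered 7 (median -0.24, against -0.01 for all genes, of which 22.9% rose and 28.1% fell), and Dtx4, a Deltex family member, rose by 1.25 (SE 0.05, adjusted p 5.48e-17).

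Of 16 BMP ligand genes, 1 passed the filter. Bmp2 averaged 6.45 ± 0.717 CPM untreated, 8.01 ± 0.479 after Pam3, 0.286 ± 0.0525 in TGFβ and 1.59 ± 0.387 under both agents (SD, n = 3). TGFβ lowered it without Pam3 (log2 fold change -4.47, SE 0.23, adjusted p 1.57e-14), and Pam3 raised it by 2.47 in the presence of TGFβ (SE 0.26, adjusted p 2.18e-08), with an interaction of 2.15 (SE 0.31, adjusted p 1.25e-05). Bmp2 was thus lowest in the TGFβ group, in which Id1 and Id3 were highest.

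Of 16 BMP receptor and SMAD genes, 12 were tested, and TGFβ without Pam3 raised 6 and lowered 2 (median 0.26, against -0.01 for all genes, of which 22.9% rose and 28.1% fell). Acvrl1, which encodes the receptor ALK1, was lower (log2 fold change -1.26, SE 0.07, adjusted p 7.35e-14), and Smad5 rose by 0.48 (SE 0.08, adjusted p 1.47e-05). Eng, the gene of the co-receptor endoglin, had 43, 70 and 42 counts in untreated cells and 2, 0 and 2 with TGFβ (adjusted p 3.07e-06).

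Of 20 BMP inhibitors, 10 were tested, and 7 rose and 2 fell with TGFβ both without Pam3 (median 0.92) and with it (median 0.70). The medians of all genes were -0.01 and 0.00, and 22.9% rose and 28.1% fell without Pam3, against 21.5% and 23.8% with it. Smad7, which encodes an inhibitory SMAD that TGFβ itself turns on, rose by 2.33 (SE 0.12, adjusted p 1.68e-14) and 1.99 (SE 0.12, adjusted p 3.11e-13). Fst, the gene of follistatin, which binds activins and some BMPs, averaged 4.32 ± 0.454 CPM untreated, 10.8 ± 1.60 after Pam3, 24.6 ± 0.589 in TGFβ and 80.1 ± 15.5 under both agents (SD, n = 3), so that each agent raised it. Its interaction was 0.39 and not called (SE 0.19, adjusted p 0.197). Fstl1, a follistatin-like gene, had log2 fold changes with TGFβ of -4.03 without Pam3 (SE 0.14, adjusted p 4.46e-18) and -3.64 with Pam3 (SE 0.13, adjusted p 1.62e-17). Bambi thus rose with TGFβ alongside Smad7 and Fst, with no called interaction for Bambi, Fst or Smad7 (-0.33 for Smad7, adjusted p 0.224).

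Of the 11 listed partners and relatives of ID factors, 8 were tested, and TGFβ without Pam3 raised 4 and lowered 4 (median 0.06, against -0.01 for all genes, of which 22.9% rose and 28.1% fell). Among the E proteins, Tcf3 rose with TGFβ by 0.50 (SE 0.06, adjusted p 7.05e-08). Tcf4 rose with Pam3 by 0.48 without TGFβ (SE 0.09, adjusted p 0.000302) and by 0.89 with it (SE 0.09, adjusted p 6.08e-09), with an interaction of 0.41 (SE 0.12, adjusted p 0.0234). Bhlhe41, which encodes a repressor characteristic of alveolar macrophages, rose with TGFβ by 1.09 (SE 0.04, adjusted p 2.33e-17) and 1.22 (SE 0.04, adjusted p 3.05e-18). Bhlhe40, its close relative, had log2 fold changes with Pam3 of -0.42 without TGFβ (SE 0.04, adjusted p 4.06e-08) and -0.45 with it (SE 0.04, adjusted p 2.53e-09). Id4 had no count in any library, so the ID factors detected were Id1, Id2 and Id3.

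**Figure D4:**
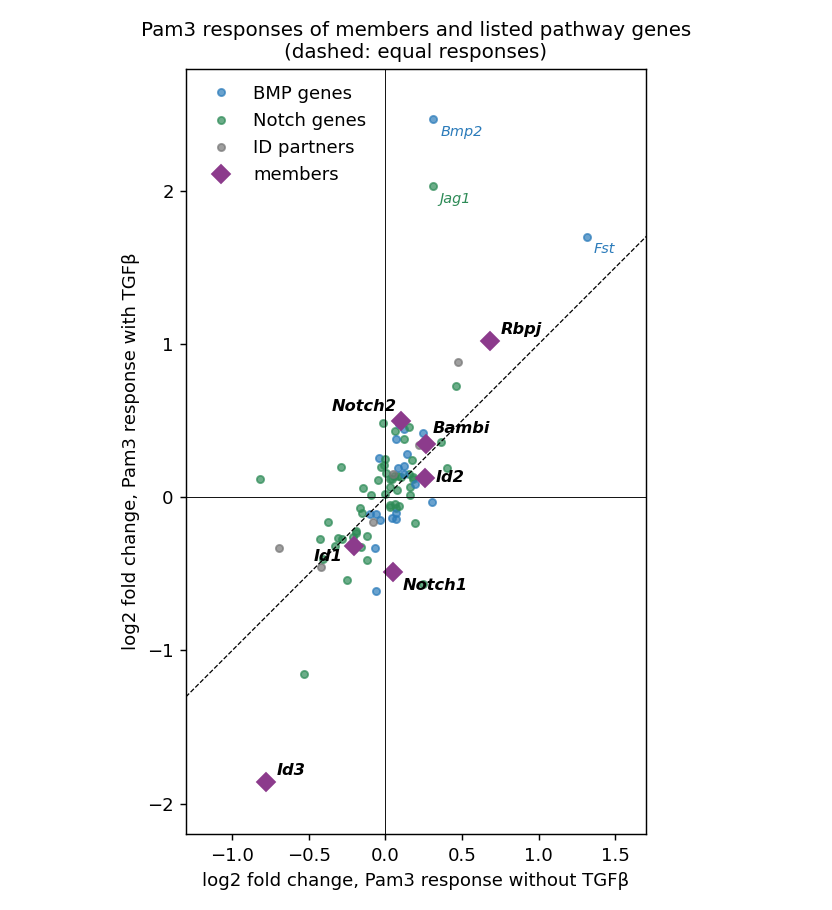
Log2 fold change of the Pam3 response without TGFβ (x axis) and with TGFβ (y axis) for 7 members and for 82 of the 92 tested list genes, those with a mean of at least 10 counts in every group; the dashed line marks equal responses, and the groups on the axes share no library. Id3 (-0.78 and -1.86) and Rbpj (0.68 and 1.02) lay farther from 0 with TGFβ than without it, and Bmp2 and Jag1 were above 2 with TGFβ and at 0.31 without it.

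The tested genes whose log2 CPM over the 12 libraries was most like that of each member were listed by Pearson's r, which here mostly reflects the 4 group means that the libraries share. Clec4a1, Il21r and Adgre1 were most like Rbpj (r = 0.997, 0.992 and 0.992), and Adgre1, the F4/80 macrophage marker, averaged 303 CPM untreated, 477 after Pam3, 145 in TGFβ and 271 under both agents. Cytip, Ypel3 and Ctnnb1 were most like Id3 (r = 0.994, 0.988 and 0.987), Ptms, Naa60 and Def6 most like Id1 (0.987, 0.986 and 0.983), and Ceacam19, Lrrc25 and Dok2 most like Id2 (0.992, 0.990 and 0.986). Bambi was most like Dgat2, Shroom4 and Stac (0.984, 0.984 and 0.981). For Notch1 they were Mtr, Slc38a1 and Zfc3h1 (0.963, 0.953 and 0.932), for Notch2 Dync1h1, Fndc3b and Ankfy1 (0.967, 0.964 and 0.964), and for Hes1, whose values near 0 depend on the prior count, Rasal2, Ankrd44 and Sort1 (0.977, 0.976 and 0.976).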

How the data were processed

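Per the labels' protocols, a stranded kit for mRNA was used, and the submitters' processing notes name GRCm39, Bowtie2 2.4.1 and featureCounts of Subread 2.0.0, without their settings. The annotation and the strand setting are not given in the sources used here. Antisense RNAs overlap exons of Id1, Id2, Id3, Bambi and Notch1, and without strand their reads cannot be told apart. Gm42820 shares 541 exon bases with Notch2 on the same strand. The deposited counts are whole reads per gene symbol without molecular identifiers. The authors' normalized table was not used.

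Genes were kept with filterByExpr at a minimum count of 10 (14749 genes), scaled with TMM and tested with the quasi-likelihood test of edgeR 4.0.16 (robust, R 4.3.3) on all 12 libraries with 4 group means. P-values were adjusted by Benjamini-Hochberg over all tested genes. Every adjusted p of a gene comes from this test unless another tool is named, and SE is the size of the log2 fold change over the square root of F. The 95% intervals take this SE with the normal distribution. They are narrower than intervals from the distribution of the F test would be. Alternatives were 2 other scalings, DESeq2 1.42.0, limma-voom (limma 3.58.1), filters with no minimum or with 10 counts in all libraries, only the 6 libraries compared, a replicate block, and leaving out each library. The procedure was tested on simulated counts. No replicate pair agreed within sampling noise (lowest chi-square over its degrees of freedom 9.99).

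The members and lists were chosen with earlier results of these data known. Named genes are all members, the 3 genes most like each, and, of each list, comparison and direction, up to 2 called genes by size of change. Those genes needed 10 counts in each library of whichever group was higher, and groups that did not overlap. Part of them are described. Dner, Id4, Hes5, Heyl, Hey2, Dtx1, Gata3 and the marker genes were named after their values were seen, as were values of named genes in other comparisons. Positions, exons and lengths come from GENCODE M39 on GRCm39, and promoter sequences from RefSeq on GRCm38.p6.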

Additional observations from a re-analysis of the deposited data

Results flagged for a closer look

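For 4 members, edgeR found that the response to Pam3 depended on TGFβ. The interaction on the log2 scale was -1.08 for Id3 (adjusted p 7.48e-09), -0.54 for Notch1 (adjusted p 0.00798), 0.40 for Notch2 (adjusted p 0.0338) and 0.34 for Rbpj (adjusted p 0.00117). Pam3 lowered Id3 in both conditions and raised Rbpj in both, by more with TGFβ. For Notch1 and Notch2, Pam3 was called only with TGFβ, and the interaction of Notch2 was lost in 11 of 19 other fits.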

How the results depend on the processing

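Members called, leaving out Hes1, ranged over the 20 alternatives (19 for the interaction) from 3 to 4 for Pam3 without TGFβ, 5 to 7 for Pam3 with TGFβ, 5 to 7 for TGFβ without Pam3, 6 to 7 for TGFβ with Pam3 and 3 to 5 for the interaction, against 4, 7, 5, 7 and 4 in the fit reported. Counts over all genes stayed within 1.5 times. Of 785 values of members, Hes1 included, under alternatives, 729 kept direction and side of the threshold, 35 lost and 14 gained a call, and 7 changed sign, none of them called. The sign changes were the interaction of Hes1 with DESeq2 (-0.41), with limma-voom (-2.28), without untreated replicate 3 (-0.35) and without Pam3+TGFβ replicate 3 (-0.74), the interaction of Bambi without Pam3 replicate 1 (-0.077), and Notch1 for Pam3 without TGFβ without untreated replicate 2 (-0.045) or Pam3 replicate 3 (-0.0075). Over the omitted libraries these 3 values ranged from -0.74 to 1.00, from -0.077 to 0.19 and from -0.045 to 0.14. The cause was not tested. The fitted interaction of Hes1 rests on a Pam3 group at 0 and on the group that carried it past the filter, so it supports nothing. Hes1 had no value where 10 counts were required in every library, or in the fits of 6 libraries that left out TGFβ alone. Other scalings moved the median of all genes by at most 0.06 on the log2 scale. With upper-quartile scaling, calls over all genes for Pam3 with TGFβ split into 2477 higher and 3489 lower, against 3008 and 2670, and for the interaction into 1255 and 1097, against 1516 and 836.

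The replicate numbers are not said to mark a shared batch, and 7 of 18 pairs with the same number had deviations correlated above 0.1 (range -0.17 to 0.30), with 5 of 12 libraries closest to their own number. Pairs with different numbers ranged from -0.40 to 0.32. With the replicate block, 39 of 40 member values stayed on their side of the threshold, and Notch1 for TGFβ without Pam3 became called (0.22, adjusted p 0.0254). Depth limits Hes1, Hey1, Dll1, Eng, Nrarp and Gata3, which had at most 93 counts in a library.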
